A study of Mus musculus with 2 samples.

Results

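Trophectoderm regulators and simple keratins are 10 genes of the first epithelium of the mouse embryo, read here in embryonic stem cells. They were chosen by gene symbol, matched through the version-stripped gene identifier to GENCODE mouse, and all 10 were found among the 43346 genes of the tables. The 4 keratins were Krt7, Krt8, Krt18 and Krt19, and the 6 lineage transcription factors were Cdx2, Elf5, Tfap2a, Tfap2c, Gata3 and Esx1. The cells were ES-E14, a mouse embryonic stem cell line of strain 129/Ola from a male embryo, in 1 group of 2 total RNA libraries with no treatment, dose or time named in the labels. The libraries are labelled biological replicates 1 and 2 but cite the same source sample. Whether the spread between them is biological or technical is therefore not known. With 1 library on each side no test between them was possible. The labels name neither the culture medium nor feeder cells. The libraries held 43163300 and 45573512 expected counts on genes, of which the 10 members took 16541 (0.0383%) and 25753 (0.0565%). The embryonic stem cell markers Pou5f1, Sox2, Nanog, Zfp42 and Esrrb were all above 1 TPM in both libraries. Paired values below are in the order replicate 1, replicate 2, and TPM is the deposited level per transcript length, scaled to the same total in each library.

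The trophectoderm is the outer layer of the blastocyst, which forms the placenta, while embryonic stem cells are derived from the inner cell mass. CDX2, GATA3 and the AP-2 factors encoded by Tfap2a and Tfap2c act in the trophectoderm or its trophoblast descendants, ELF5 maintains trophoblast stem cells, and ESX1 is a homeobox protein of the placenta. Keratins 8 and 18, with 7 and 19, build the intermediate filaments of simple epithelia; each filament pairs a type II keratin, such as keratin 7 or 8, with a type I keratin, such as keratin 18 or 19.

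The promoters of the most abundant pair of keratins, of Krt7 and of Cdx2 are shown because the levels of these genes differ widely. Sequences are from RefSeq on GRCm38.p6, the assembly of mm10, written 5′ to 3′ on the strand of the gene and ending before the first exon of a coding transcript. Capitals mark matches to the motifs searched. They cover chr15:102027966-102028179 on the plus strand for Krt18, chr15:102004483-102004592 on the minus strand for Krt8, chr15:101412153-101412401 on the plus strand for Krt7 and chr5:147307271-147307499 on the minus strand for Cdx2. The Krt7 stretch ends before the first exon of Krt7-201. It lies downstream of the first exon of another coding model, Krt7-204 (101411103 to 101411241), and so is not the promoter of that model. The same stretch also holds an exon of Krt7-205 (101412235 to 101412395).
Krt18: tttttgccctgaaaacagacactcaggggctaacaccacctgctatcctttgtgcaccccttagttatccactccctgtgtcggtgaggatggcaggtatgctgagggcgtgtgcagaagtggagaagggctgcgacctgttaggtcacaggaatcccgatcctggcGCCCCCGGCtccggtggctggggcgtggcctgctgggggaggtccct
Krt8: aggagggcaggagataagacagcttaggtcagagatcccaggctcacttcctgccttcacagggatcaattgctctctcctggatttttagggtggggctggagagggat
Krt7: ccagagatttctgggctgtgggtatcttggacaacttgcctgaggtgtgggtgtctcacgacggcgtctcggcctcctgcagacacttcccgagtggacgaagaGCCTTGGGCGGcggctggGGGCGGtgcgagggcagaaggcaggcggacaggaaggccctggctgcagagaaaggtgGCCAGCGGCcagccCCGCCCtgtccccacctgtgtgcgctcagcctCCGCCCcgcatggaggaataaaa
Cdx2: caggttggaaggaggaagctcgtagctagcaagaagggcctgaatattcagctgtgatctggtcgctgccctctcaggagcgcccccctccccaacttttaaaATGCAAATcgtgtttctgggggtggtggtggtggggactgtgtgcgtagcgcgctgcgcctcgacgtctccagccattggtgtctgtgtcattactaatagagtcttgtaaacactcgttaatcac

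RefSeq promoter windows were found for 8 of the 10 members, with 10 start sites. Each window held 300 bases, 250 before and 50 after the start, and 5 motifs were searched on both strands with these promoters in view. The octamer ATGCAAAT, the sequence bound by OCT4 and its relatives, stood in 1 of the 10 member windows, that of Cdx2 from position -147 to -140, against 1.74% of all 32851 windows. The AP-2 motif GCCNNNGGC stood in 4 member windows, against 16.6% of all windows. These were the windows of Krt18 (-83 to -75), Krt7 (-146 to -138 and -70 to -62), Cdx2 (-16 to -8, after the end of the printed stretch) and Gata3. The Cdx2 match lies inside the first exon of Cdx2-201 in GENCODE M21. The GC box GGGCGG stood in 4 windows, of Krt7, Gata3 and both starts of Tfap2a, against 35.7% of all windows, and in Krt7 a GC box overlapped an AP-2 match. TATAAA stood in the Krt8 window alone, in overlapping matches on both strands at the start site and so outside the printed stretch, against 13.6% of all windows. That start, at 102004342, lies inside the first exon of Krt8-201 in GENCODE M21 (102003898 to 102004482), as do the matches. The TEAD motif CATTCC stood in 1 window, of Elf5, against 14.7% of all windows. This match, at -173 to -168 of the start at 103412098, lies inside the first exon of the coding model Elf5-206. A match describes these letters and shows no binding.

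Krt8 and Krt18, the main keratin pair of simple epithelia, were the most abundant members. Krt8 (ENSMUSG00000049382; mm10 chromosome 15, 101996698 to 102004482, minus strand) stood at 72.7 and 113.57 TPM, or 93.1 ± 28.9 TPM (SD, n = 2), from 9310 and 13839 counts. The libraries did not overlap in their deposited intervals, which ran from 70.8 to 73.8 TPM and from 111 to 115 TPM, and replicate 2 was the higher. Its rank was 383 and 293 among 21474 protein-coding genes. Krt18 (ENSMUSG00000023043; chromosome 15, 102028180 to 102032027, plus strand) stood at 52.5 and 91 TPM, or 71.8 ± 27.2 TPM, from 5074 and 8359 counts. Here too replicate 2 was higher and the deposited intervals lay apart. The genes lie 23698 bases apart and are transcribed away from each other. Of the outer neighbours, Krt78 stood at 0.01 and 0.02 TPM and Eif4b, a translation initiation factor gene, at 59.7 and 72.2 TPM. The ratio of Krt8 to Krt18 was 1.38 and 1.25 in TPM.

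Krt19 and Krt7, the other simple keratins, were lower. Krt19 (ENSMUSG00000020911; chromosome 11, 100140810 to 100148665, minus strand), a small type I keratin, stood at 9.87 and 16.7 TPM, or 13.3 ± 4.86 TPM, from 921 and 1596 counts. Krt7 (ENSMUSG00000023039; chromosome 15, 101411043 to 101430313, plus strand), a type II keratin, stood at 2.05 and 4.1 TPM, or 3.08 ± 1.45 TPM, from 402 and 674 counts. Both were higher in replicate 2, with deposited intervals that lay apart. Krt18 exceeded Krt19 by 5.32 and 5.44 times in TPM, while Krt8 exceeded Krt7 by 35.5 and 27.7 times. Summed, the type II members Krt7 and Krt8 stood at 74.7 and 118 TPM and the type I members Krt18 and Krt19 at 62.4 and 108 TPM, a ratio of 1.20 and 1.09. The nearest coding neighbours were near 0: Krt80 and Krt87 beside Krt7 and Krt15 and Krt9 beside Krt19 did not exceed 0.08 TPM in either library.

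**Figure D1:**
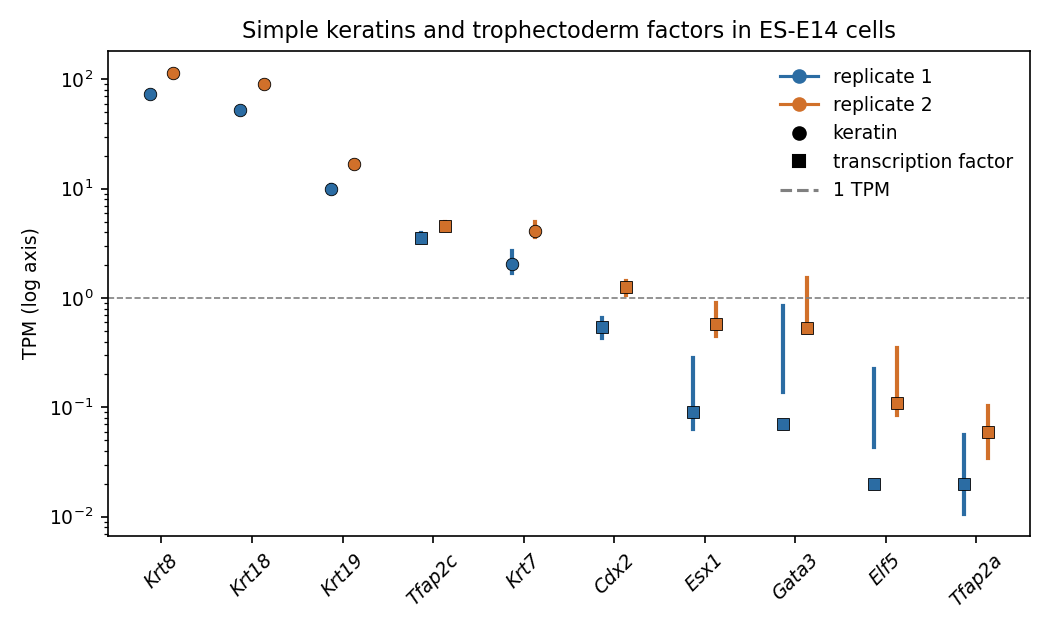
TPM of the 10 members on a log axis, with circles for keratins, squares for transcription factors, blue for replicate 1 and orange for replicate 2; bars span the deposited interval of each library and the dashed line is 1 TPM. Krt8 is highest and Tfap2a lowest by mean, every member is higher in replicate 2, and the points of Gata3 lie below their own bars.

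The 4 members held nearly all keratin output. Of 54 keratin genes in the tables, 27 on chromosome 11 and 27 on chromosome 15, the 4 members summed to 137 and 225 TPM, which was 92.2% and 96.3% of the keratin total. Krt8 and Krt18 alone took 84.2% and 87.4%. Among the 50 other keratin genes, Krt42 was at 1 TPM or more in both libraries, at 8.15 and 4.98 TPM, and 13 genes had 0 counts in both. Krt42 was lower in replicate 2, unlike the 4 members. Of the 50 others, 26 (52%) were higher in replicate 2, 7 were lower and 17 were equal. Among all protein-coding genes 55.4% were higher in replicate 2 by TPM, a share near that of these keratins. Their summed level was 11.6 and 8.57 TPM, and without Krt42 and Krt17, left out after their values were seen, the other 48 summed to 1.81 and 2.85 TPM. Keratin genes are close paralogs, but the expected counts of all 54 were whole in both libraries, so no fractional split of reads is seen. Low values of single genes rest on few counts and are uncertain.

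**Figure D2:**
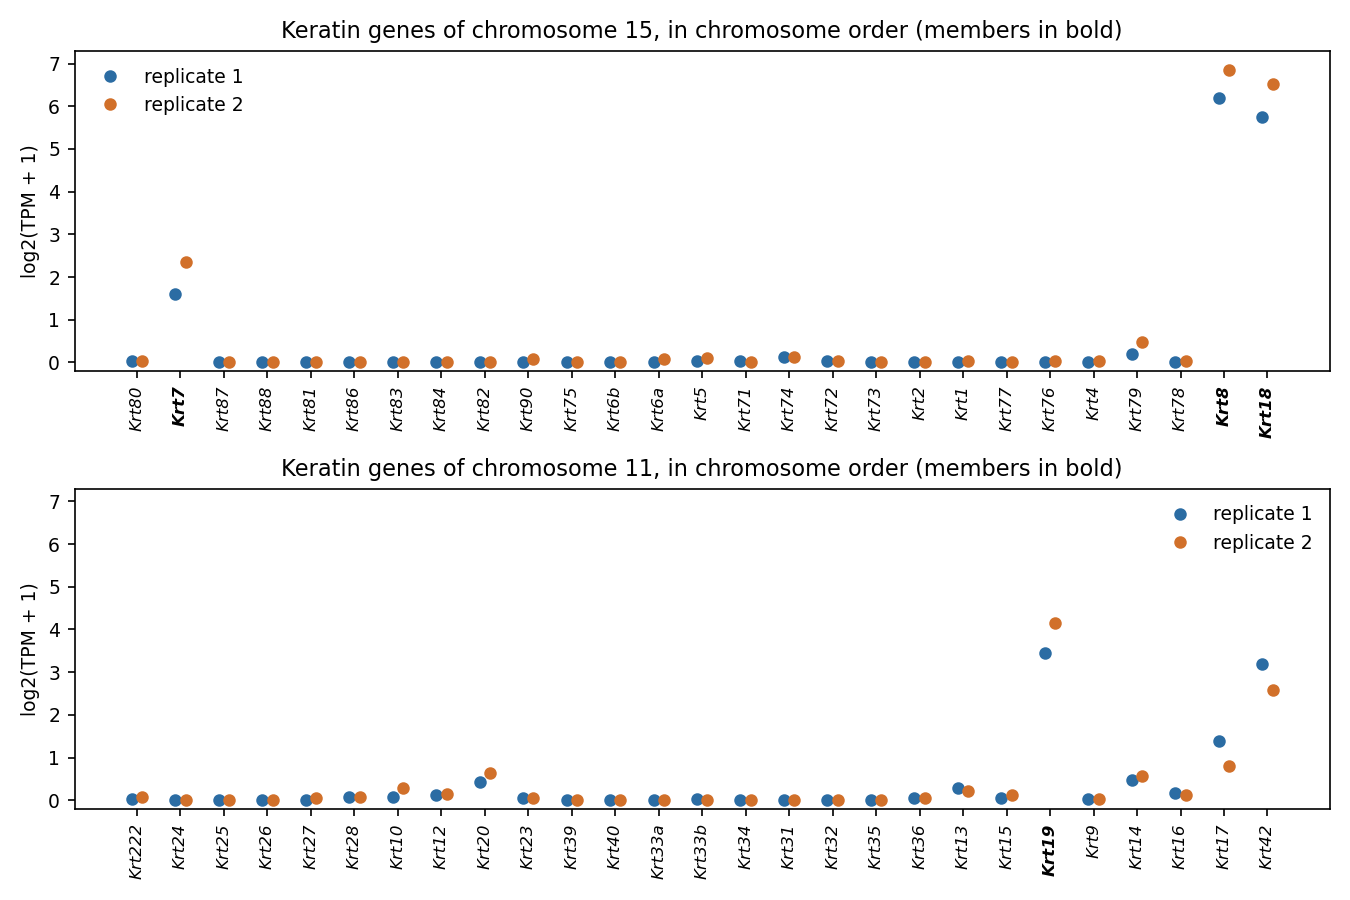
log2(TPM + 1) of the 54 keratin genes in chromosome order, chromosome 15 above and chromosome 11 below, with members in bold and a point for each library. Krt8 and Krt18 stand at the right end of chromosome 15, most other genes lie near 0, and Krt42 (8.15 and 4.98 TPM) and Krt17 are lower in replicate 2.

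RNA of genes whose proteins anchor keratin filaments or join epithelial cells was detected in part. Of 7 filament partner genes measured, 5 were at 1 TPM or more in both libraries, against 46.3% of protein-coding genes, and their summed level was 134.79 and 112 TPM. Epcam, an epithelial adhesion gene, stood at 62.4 and 31.4 TPM, Plec, which encodes the linker plectin, at 35.0 and 34.9 TPM, and Jup, which encodes plakoglobin, at 18.9 and 23.9 TPM. The lowest was Evpl, for envoplakin, at 0.86 and 0.68 TPM. Of the 7, 3 were higher in replicate 2 by TPM and 2 with TMM scaling, against all 4 keratins on both scales. By TPM 55.4% of protein-coding genes were higher. With TMM scaling the share was 51.5% of those of 10 or more counts. Eppk1 was not analysed here. Of 11 other intermediate filament genes 8 were detected in both libraries, led by the mesenchymal filament gene Vim at 88.9 and 301.94 TPM. The nuclear lamin genes Lmnb1 (34.7 and 40.8 TPM) and Lmna (15.4 and 28.0 TPM) followed, and Gfap was lowest at 0.08 and 0.09 TPM. The ratio of Vim to Krt8 was 1.22 and 2.66 in TPM.

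Tfap2c, which encodes the factor AP-2 gamma, was the only one of the 6 transcription factor genes to reach 1 TPM in both libraries. Tfap2c (ENSMUSG00000028640; chromosome 2, 172549593 to 172558622, plus strand) stood at 3.56 and 4.57 TPM, or 4.07 ± 0.714 TPM (SD, n = 2), from 715 and 901 counts. Replicate 2 was higher, and the deposited intervals, 3.31 to 3.91 and 4.32 to 4.995 TPM, lay apart. Its count ratio was the lowest of the 10 members, 1.19 per library total (95% interval 1.08 to 1.32, counting error only). With TMM scaling the Tfap2c ratio was 1.08. Its log2 difference was 0.29 by TPM and 0.06 with TPM rescaled to protein-coding genes, so the difference depended on the scale. Its neighbours Fam209 (0.31 and 0.13 TPM) and Bmp7 (0.45 and 0.32 TPM) stood lower.

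The Tfap2c transcripts differ at the beginning of their coding sequence. Tfap2c-201 took 61.92% and 77.27% of the gene's output, or 69.6 ± 10.9% (SD, n = 2), while Tfap2c-202 took 13.71% and 10.26% and Tfap2c-206 12.07% and 9.3%. The bases on both sides of the point where the shared coding sequence begins are shown because the models differ there. The line for Tfap2c-201 runs from coding base 1 to 70 and so begins at its start codon, while that for Tfap2c-202 runs from coding base 193 to 262 and leaves out its start. Bases are from GENCODE M21 on GRCm38. Lower case marks bases before the shared letters, and capitals the first 24 of 1301 coding bases with the same letters in the 3 models. Tfap2c-206 has the same letters as Tfap2c-202 over this stretch.
Tfap2c-201: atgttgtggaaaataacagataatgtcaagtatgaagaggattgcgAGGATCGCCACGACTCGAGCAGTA
Tfap2c-202: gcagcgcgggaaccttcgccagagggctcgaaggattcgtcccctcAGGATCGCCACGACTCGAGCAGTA
Counted by letters, the coding bases before the shared part numbered 46 in Tfap2c-201, 238 in Tfap2c-202 and 163 in Tfap2c-206. The first capitals, AG, still lie in the first exon of each model, and the shared exon begins at 172551407. Tfap2c-201 led in both libraries.

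Cdx2, the homeobox factor of the trophectoderm, was below 1 TPM in replicate 1 and above it in replicate 2. Cdx2 (ENSMUSG00000029646; chromosome 5, 147300805 to 147307270, minus strand) stood at 0.54 and 1.25 TPM, or 0.895 ± 0.502 TPM, from 88 and 194 counts. The deposited intervals, 0.433 to 0.657 and 1.07 to 1.42 TPM, lay apart, and the count ratio was 2.09 (1.61 to 2.72). Pou5f1, the gene of OCT4, exceeded Cdx2 by 300.8 and 161 times in TPM. Of the neighbours, Pdx1 stood at 0 and 0.01 TPM and Urad at 0.02 and 0 TPM.

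Esx1 and Gata3 rested on few reads in replicate 1. Esx1 (ENSMUSG00000023443; chromosome X, 137115397 to 137122083, minus strand) stood at 0.09 and 0.58 TPM, from 10 and 57 counts, a count ratio of 5.40 (2.73 to 11.9). Gata3 (ENSMUSG00000015619; chromosome 2, 9857078 to 9890034, minus strand), a zinc finger factor, stood at 0.07 and 0.53 TPM, from 13 and 116 counts, a ratio of 8.45 (4.75 to 16.3). Replicate 2 was higher for both, and the counting intervals excluded a ratio of 1. The TPM of Gata3 was under its own deposited lower bound in both libraries, 0.139 and 0.612 TPM, so its TPM is uncertain. Elf5 was under its bound in replicate 1, but with 8 counts in all it is outside the class of protein-coding genes of 10 or more counts, of which 5.35% had a TPM under the bound in a library. The counts of all 10 members were whole to within 0.005 in both libraries, as were those of 88.8% of such genes. On the opposite strand Gata3 overlaps the antisense gene Gm13256 (0 and 0 TPM) and the protein-coding gene 4930412O13Rik (0.01 and 0.12 TPM). It also overlaps the protein-coding gene 9230102O04Rik on its own strand (0 and 0.04 TPM). No source used here states whether counting used strand, so reads of a gene and an antisense partner cannot be told apart. The neighbours were Celf2 (0.76 and 0.89 TPM) and Taf3 (1.38 and 1.57 TPM) for Gata3, and Fam199x (1.10 and 1.39 TPM) and Il1rapl2 (0 and 0 TPM) for Esx1.

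Elf5 and Tfap2a were at the edge of detection. Elf5 (ENSMUSG00000027186; chromosome 2, 103411688 to 103450989, plus strand), an ETS factor gene, stood at 0.02 and 0.11 TPM from 3 and 5 counts, a count ratio of 1.58 (0.307 to 10.2). Its TPM ratio was 5.5, and the effective length was 1959 bases in replicate 1 and 634 in replicate 2. Tfap2a (ENSMUSG00000021359; chromosome 13, 40715302 to 40738376, minus strand), which encodes AP-2 alpha, stood at 0.02 and 0.06 TPM from 5 and 12 counts, a ratio of 2.27 (0.745 to 8.24). Both were higher in replicate 2, by counting intervals that included 1, so a difference was not detectable at this depth. Beside Elf5, Ehf stood at 0.05 and 0.08 TPM and the catalase gene Cat at 2.42 and 4.84 TPM. Beside Tfap2a, Ofcc1 was listed at 0 in both libraries and Gcnt2 stood at 5.85 and 4.73 TPM. The antisense gene Gm26688, which overlaps Tfap2a, had 0 and 3 counts.

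In all, 5 of the 10 members were at 1 TPM or more in both libraries, against 46.3% of protein-coding genes: all 4 keratins and 1 of the 6 factors. On log2(TPM + 1) the keratins had a median of 4.59 in replicate 1 and 5.34 in replicate 2, and the factors 0.11 and 0.64. The difference of the medians of the members' means was 4.59 ± 0.15 (SD, n = 2), and members are not replicates of a class, so no test is given. The sum of the 6 factors was 4.3 and 7.1 TPM, and Krt8 exceeded Tfap2c by 20.4 and 24.9 times. Krt8, Krt18 and Krt19 stood above every factor in both libraries, while Krt7 stood below Tfap2c. The order was Krt8, Krt18, Krt19, Tfap2c, Krt7, Cdx2, Esx1, Gata3, Elf5 and Tfap2a in both libraries, with Elf5 and Tfap2a tied in replicate 1. Neighbours in this order whose library ranges did not overlap were Krt18 and Krt19, Krt19 and Tfap2c, and Krt7 and Cdx2; all other neighbours overlapped. In bulk RNA, fewer cells of a type and less RNA per cell cannot be told apart.

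All 10 members were higher in replicate 2 by TPM, as were 55.4% of protein-coding genes. Among protein-coding genes whose TPM differed the share was 68.5%. The median log2 difference was 0.54 over the 10 members, with no filter on level, and 0.72 over the keratins. Over protein-coding genes it was 0.03 without a filter and 0.23 for those of 1 TPM or more in mean. The TPM scale moved this filtered background. With edgeR TMM scaling the medians of the members, the keratins and the filtered background were 0.48, 0.48 and 0.02. All 10 members were still higher, against 51.5% of protein-coding genes of 10 or more counts. With DESeq2 size factors all 10 were also higher, against 51.6%. None of the 5 members with a mean of 1 TPM or more was 2-fold higher on log2(TPM + 1), a class that held 3.24% of all such genes, with 0.866% 2-fold lower. With TMM scaling these shares were 1.77% and 2.8%. With a pseudocount of 0.1 and no filter on low values, chosen after seeing the data, 3 members passed, Cdx2, Gata3 and Esx1, against 5.65% of protein-coding genes.

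By counts per library total, with 95% intervals for counting error only, the keratin ratios were 1.41 for Krt8 (1.37 to 1.45), 1.56 for Krt18 (1.51 to 1.62), 1.64 for Krt19 (1.51 to 1.78) and 1.59 for Krt7 (1.40 to 1.80). Scaled by TMM the ratios of CPM were 1.27, 1.41, 1.48 and 1.43 in that order. By the same scale 3 members, Gata3, Esx1 and Tfap2a, were 2-fold or more higher, at 7.62, 4.87 and 2.05, against 7.56% of protein-coding genes of 10 or more counts. With DESeq2 size factors the same 3 members passed, against 7.58%. The deposited intervals of the libraries lay apart with replicate 2 higher for 7 members, against 39.5% of such genes, and the exceptions were Gata3, Elf5 and Tfap2a. The widest counting intervals were those of Elf5, Tfap2a, Esx1 and Gata3, the members of lowest count.

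**Figure D3:**
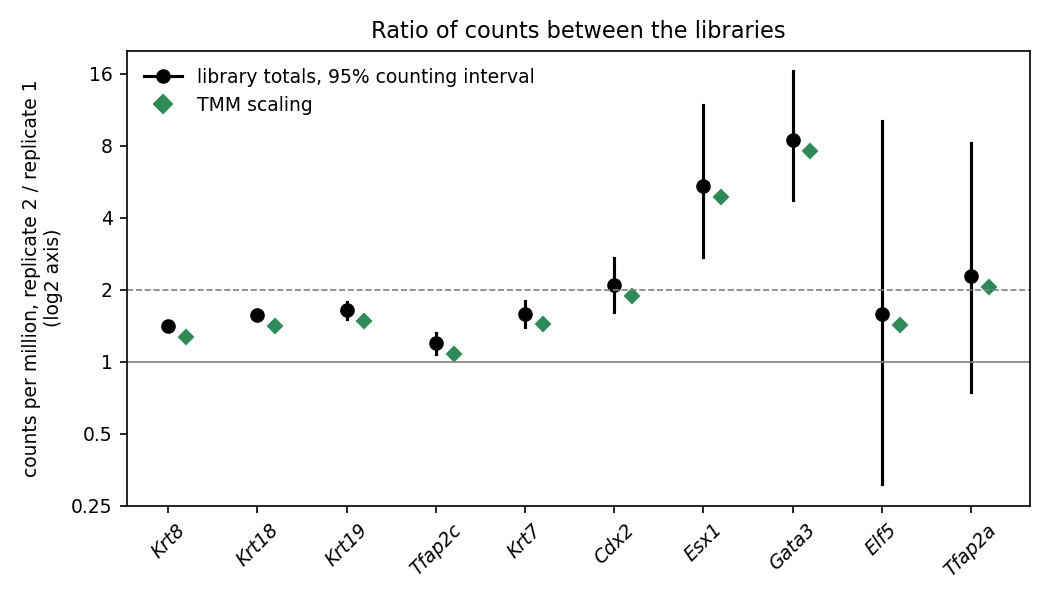
Replicate 2 over replicate 1 for each member on a log2 axis, as counts per library total (circles, with 95% intervals for counting error only) and with TMM scaling (diamonds); lines mark ratios of 1 and 2. The keratins lie between 1.41 and 1.64 by library totals, Gata3 is highest at 8.45, and the intervals of Elf5 and Tfap2a include 1.

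Markers of some other cell types were also higher in replicate 2, as were 55.4% of all protein-coding genes by TPM. At 1 TPM or more in both libraries were 46.3% of protein-coding genes. All 12 extraembryonic endoderm markers were higher in replicate 2 by TPM, and 11 with TMM scaling, with 2 of them at 1 TPM or more in both libraries, with a summed level of 25.2 and 41.1 TPM. The number at 1 TPM or more was 7 in replicate 2 alone, and 7 in both libraries with TPM rescaled to protein-coding genes. Lama1 was the gene that was lower with TMM scaling, at a ratio of 0.952. Lama1, a laminin chain gene, led at 21.8 and 25.5 TPM, the endocytic receptor genes Cubn (0.39 and 4.22 TPM) and Amn (1.30 and 2.60 TPM) followed, and Ttr was lowest at 0 and 0.01 TPM. Of 9 feeder fibroblast markers 7 were higher, 5 were detected in both, and the sum was 48.5 and 156.2 TPM. Acta2 (33.0 and 100.23 TPM), Col1a1 (7.21 and 28.8 TPM) and Col1a2 (3.58 and 12.1 TPM) led this list, and Lum had 0 counts in both libraries. Thy1 was the fibroblast marker that was lower in replicate 2, at 2.27 and 1.62 TPM and a ratio of 0.580 with TMM scaling. The 7 stratified epithelium markers summed to 9.48 and 9.19 TPM, nearly all of it Sfn (8.95 and 8.29 TPM), with Krt14 at 0.39 and 0.49 TPM, Krt10 at 0.06 and 0.21 TPM and Krt1 at 0.01 and 0.02 TPM. The 5 embryonic stem cell markers summed to 323 and 417 TPM, led by Pou5f1 (162.43 and 201.07 TPM), Zfp42 (78.2 and 114.76 TPM) and Sox2 (31.98 and 39.46 TPM). Nanog was lowest by mean, at 17.2 and 31.9 TPM, and 4 of the 5 were higher in replicate 2 by TPM. Esrrb was the exception, at 32.96 and 29.32 TPM. The median log2 difference of these 5 was 0.31 by TPM but 0.01 with TMM scaling. By TMM the same number were higher, with ratios of 1.01 for Pou5f1 and 1.00 for Sox2, so their difference depended on the scale. The part of these markers in the difference of the members was not tested.

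Other genes of the trophoblast were detected in part. Among all protein-coding genes 46.3% were at 1 TPM or more in both libraries and 55.4% were higher in replicate 2 by TPM. The lists below are read beside these shares. Of 11 other trophoblast regulators 6 were at 1 TPM or more in both libraries and 9 were higher in replicate 2, with a sum of 22.8 and 26.4 TPM. The receptor gene Fgfr2 (8.75 and 8.59 TPM) and the factor gene Klf5 (6.91 and 4.56 TPM) led and were the exceptions, followed by Ets2 (2.93 and 3.26 TPM), and Dlx3 was lowest at 0.02 and 0.13 TPM. Of 11 trophoblast products 2 were detected in both, the cadherin gene Cdh3 (9.66 and 4.27 TPM) and Plet1 (3.46 and 2.20 TPM), and both were lower in replicate 2. Plac1, a placental gene, stood at 0.08 and 1.34 TPM from 6 and 94 counts, and Tpbpb and Prl3b1 had 0 counts in both libraries. Of 15 paralogs of the 6 factors 2 were detected in both, Elf2 (5.52 and 6.30 TPM) and Elf3 (1.80 and 3.07 TPM), and Elf1 followed at 0.96 TPM in each. The lowest was Tfap2d, at 0.02 and 0 TPM. In these lists the median log2 difference was 0.33 for the regulators, 0 for the products and 0.04 for the paralogs.

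**Figure D4:**
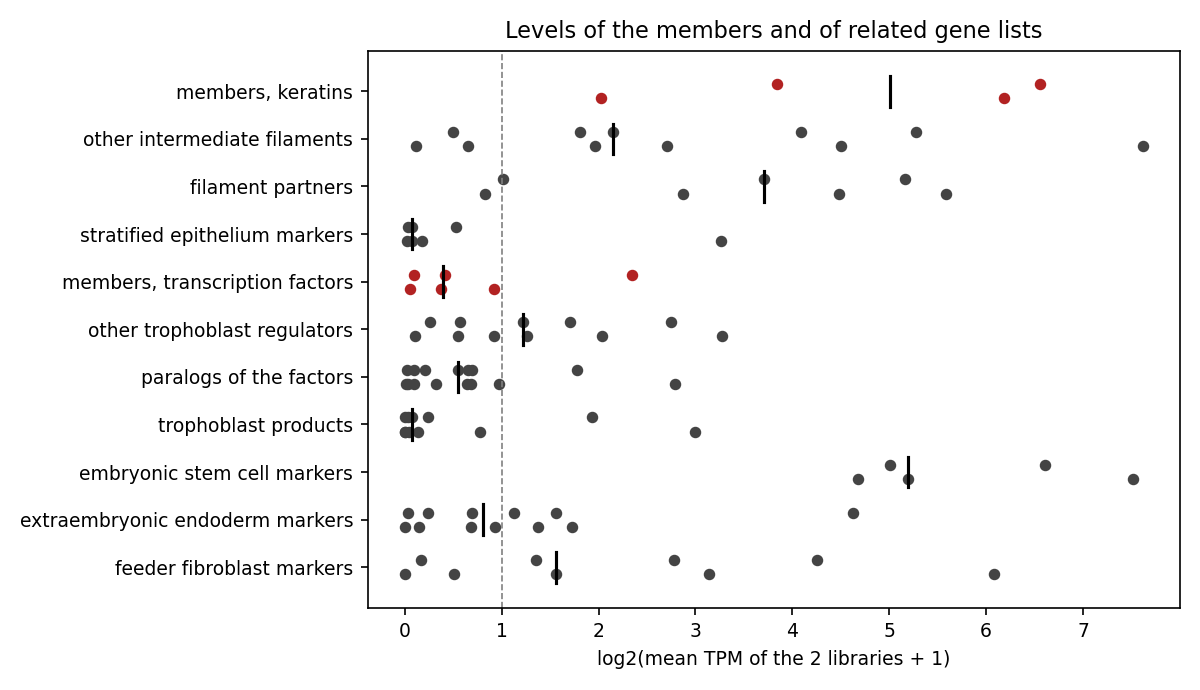
log2(mean TPM of the 2 libraries + 1) of each gene by list, members in red, with a vertical bar at the median of each list and a dashed line at 1 TPM. Tfap2c is the 1 factor to the right of the line by mean, while all 4 keratins and all 5 embryonic stem cell markers lie to its right.

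The keratins differed in how their output fell on transcripts. Krt8, Krt18 and Cdx2 each had 1 transcript model in the tables, so their shares say nothing of splicing. Krt19-201, with 6 exons and 1209 coding bases, took 71.01% and 82.83% of Krt19 output, or 76.9 ± 8.36% (SD, n = 2). The noncoding Krt19-203, which has a first exon of 34 bases of its own, took the rest, 28.99% and 17.17%, from 148.21 and 141.26 counts. Krt19-201 led in both libraries.

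The leading transcript of Krt7 differed between the libraries. Krt7-201, with 9 exons and 1371 coding bases, took 48.81% and 34.9% of Krt7 output, and Krt7-204, with 7 exons and a coding sequence of 347 bases in the annotation, took 35.49% and 46.79%. By counts the order did not change: Krt7-201 held 76.1% and 61.8% of the gene's counts, and Krt7-204 6.83% and 10.2%, or 27.44 and 68.45 counts. Krt7-204 is 642 bases long against 4094 for Krt7-201, so few counts give it a large share per length. The annotation marks Krt7-204 as incomplete at the end of its RNA and of its coding sequence. Its length, its share and the change of the leading transcript are therefore uncertain. Krt7-202, annotated with a retained intron in an exon of 2313 bases, took 12.48% and 18.31%. Of the low factors, Esx1-201 took 65.75% and 64.28%, and Gata3-201 took 69.28% and 95.48% from 12 and 115.08 counts. From the deposited posterior means the shares were 37.56% and 51.84% for Esx1-201 and 12.31% and 48.24% for Gata3-201. On that measure Esx1-203 (41.42%) and Gata3-205 (33.37%) led in replicate 1, so the leading transcript of these genes is uncertain. All 5 Tfap2a counts of replicate 1 fell on Tfap2a-201 and all 12 of replicate 2 on Tfap2a-202, and the 3 and 5 counts of Elf5 fell on 3 of its 7 models in each library, 5 models in all, so no leading transcript was read for either.

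**Figure D5:**
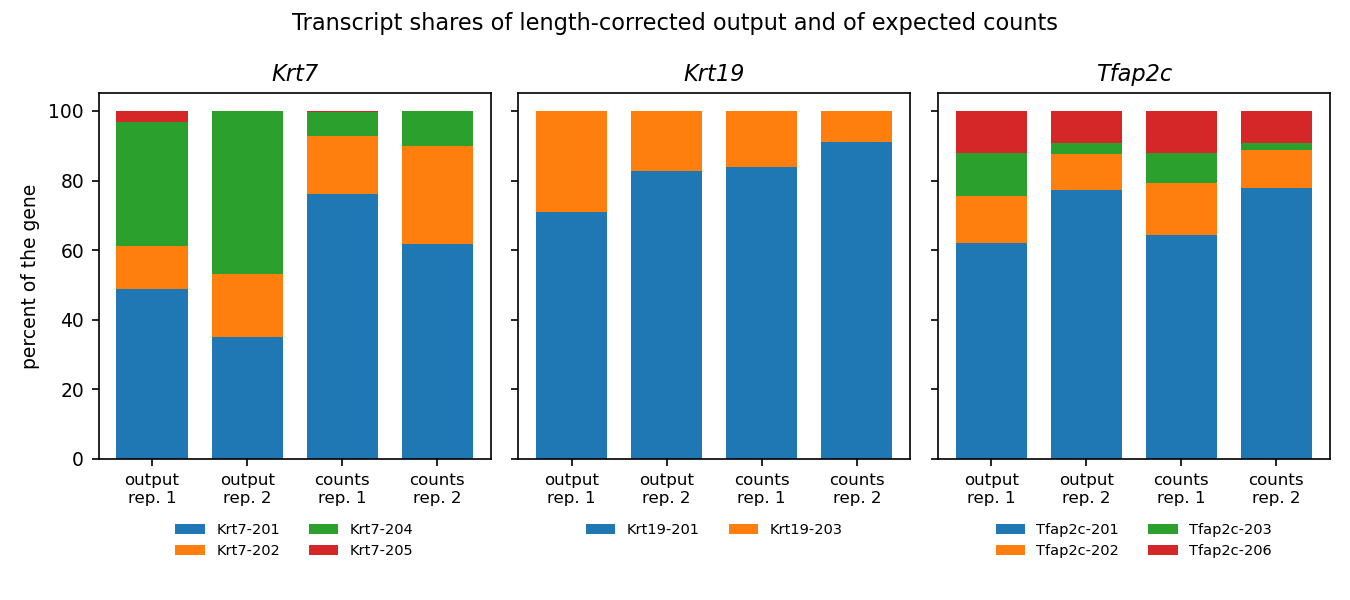
Stacked percent of each gene by transcript for Krt7, Krt19 and Tfap2c, as the deposited length-corrected output and by expected counts in each library. Krt19-201 and Tfap2c-201 lead in every bar, while for Krt7 the leading output changes from Krt7-201 (48.81%) to Krt7-204 (46.79%) and the leading counts stay with Krt7-201.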

How the data were processed

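Total RNA of ES-E14 cells was sequenced in 2 libraries of 1 group. Per the deposited text files, the genome was mm10 and the annotation M4, and each library was quantified alone. No aligner, quantifier or use of strand is stated: not given in the sources used here. Per the file headers, the deposited tables give an expected count, TPM and FPKM for each gene and transcript. Posterior mean TPM, the bounds of its interval (level not given) and the effective length are likewise deposited and were used as the authors' signal values. The percent of a gene's output by transcript is also the authors' deposited value.

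Symbols, biotypes and exons came from GENCODE M21, in which 42462 of 43346 genes matched and 884 did not; 26248 entries named by a number and 97 spike-ins were left out. Because the annotations differ, some models have other lengths in M21. The members and lists were chosen with earlier results of these data known. Detection meant 1 TPM or more in both libraries. Differences are on log2(TPM + 1), which understates those of low genes, and 2-fold was the limit for a call. Count ratios per library total have exact 95% intervals that cover counting error only, since reads are not independent molecules. Depth was 43163300 and 45573512 expected counts, and protein-coding genes held 19.4% and 23.8% of TPM, so TPM depends on how much RNA of other kinds a library held. Expected counts, rounded, were scaled over 19063 genes of 10 or more counts with edgeR 4.0.16 TMM factors (0.949 and 1.05) and DESeq2 1.42.0 size factors (0.925 and 1.08) in R 4.3.3, and this scaling was tested on simulated data. Tables were handled in Python 3.11.15 with pandas 2.3.3 and numpy 2.4.6, intervals with scipy 1.17.1 and figures with matplotlib 3.10.9.

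The rule for named genes took all 10 members, the 3 highest and the lowest of each list, other keratins at 1 TPM or more in both libraries and the nearest coding neighbours; other genes named were chosen after their values were seen. The alternatives used a limit of 0.5 or 5 TPM, FPKM, posterior mean TPM, lower bounds of the deposited interval, rescaling to protein-coding genes, a pseudocount of 0.1, no filter, both count scalings, means for medians, and each library alone.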

Additional observations from a re-analysis of the deposited data

How the results depend on the processing

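The median or mean of the keratins stayed above that of the factors under the alternatives run, though Krt7 stood below Tfap2c in TPM. All 10 members stayed higher in replicate 2. In the other lists 6 genes changed direction between TPM and TMM scaling (Lama1, Dsp, Nefl, Gfap, Gata1 and Tfap2b). The split of genes 2-fold higher and lower turned from 3.24% and 0.866% to 1.77% and 2.8%. The number of members detected in both libraries, 5, was 3 at a limit of 5 TPM, and 5 to 6 with 1 library left out; with TPM rescaled to protein-coding genes it was 6, Cdx2 being added. The median of the keratins stood above that of the factors by 4.59 log2 units. This difference was 6.45 with a pseudocount of 0.1, 4.34 with posterior mean TPM, 5.15 with FPKM, 6.04 when rescaled and 3.92 by means. With 1 library left out it was 4.48 to 4.70, and the cause was not tested. The median difference of the members, 0.54, was 0.80 with a pseudocount of 0.1. The number of members 2-fold higher, 0, was 3 (Cdx2, Gata3 and Esx1) with a pseudocount of 0.1 and no filter together, chosen after seeing the data, against 5.65% of protein-coding genes. Of single values, 39 moved and 124 did not, where moved means over 1.5 times for a count, over the half-width from the deposited interval bounds for a member's difference, and over 1 SD for a transcript share. With TPM rescaled, 7 endoderm markers and 7 paralogs of the factors were detected in place of 2 and 2, and 2 stratified epithelium markers in place of 1. In replicate 2 alone 7 endoderm markers and 2 factors passed. A limit of 5 TPM left 0 factors, 1 other trophoblast regulator, 0 products, 4 other filaments, 1 paralog, 1 endoderm marker and 2 fibroblast markers. No paired analysis was possible because the series has 1 group. With 3 to 13 counts in replicate 1, Elf5, Tfap2a, Esx1 and Gata3 are limited by depth.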

Other observations

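Of the 50 keratin genes that are no members, Krt17 and Krt42 had the highest levels and both were lower in replicate 2. Krt17, a type I keratin of stratified epithelia, stood at 1.62 and 0.74 TPM from 176 and 76 counts, a count ratio of 0.409 (95% interval 0.308 to 0.538, counting error only). Krt42 stood at 8.15 and 4.98 TPM from 666 and 376 counts, a ratio of 0.535 (0.470 to 0.608). They are neighbours on chromosome 11, between 100256217 and 100269871. The counts of both genes were whole in both libraries, so no fractional split of reads between these paralogs is seen. Krt19 on the same chromosome had a ratio of 1.64. Krt17 was chosen after its values were seen.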
